A study of Mus musculus with 5 samples.

Results

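Guanylate-binding proteins (GBPs) are large GTPases encoded in mice by 2 gene clusters, and 8 of them, Gbp2, Gbp3, Gbp4, Gbp5, Gbp6, Gbp7, Gbp8 and Gbp9, are described here in lung metastases. They are 8 of the 23771 genes in the authors' gene table of cancer cells, and they were chosen from the difference between the 2 libraries compared below, so their values are a description and no test was made on them. The table also lists Gbp2b and Gbp10, which lie outside that choice and are given beside it. Female BALB/c mice received intravenous injections of 200 µL of tumor-secreted factors (TSF), medium conditioned by pieces of 4T1 mammary tumors, or of control medium (CM) incubated in parallel, 3 times per week for 3 weeks. All mice were then injected intravenously with 25000 4T1 cells, a mouse mammary carcinoma line that here carried a lentiviral CD90.1 reporter. Lungs were taken 16 days later, when the mice were 11 weeks old, the dissociated lungs of 3 mice were pooled per group, and 1 single-cell RNA library was made from each pool. The study used these cells to ask how TSF pre-treatment of the lung alters cancer cells that colonize it.

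GBPs belong to the dynamin superfamily and are among the genes most strongly induced by interferon-γ. They assemble on the membranes of pathogen-containing vacuoles and on cytosolic bacteria, and they promote inflammasome signaling. Interferon-γ acts through its receptor and the kinases JAK1 and JAK2, and the promoters that respond to it can hold GAS elements or elements of the ISRE type, the latter bound by IRF1. Cells of many lineages, tumor cells included, express GBPs when they receive this signal.

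The stretches just before the gene starts given by RefSeq are shown because both element types can be looked for in them. The RefSeq promoter table held entries for 4 of the 8 members (Gbp2, Gbp3, Gbp5 and Gbp7, all on chromosome 3), and 250 bases before each start were searched on both strands for the letters TTCNNNGAA (GAS) and GAAANNGAA (ISRE-type). Capitals mark the matches, and the sequences are those of the C57BL/6J reference genome and not of the BALB/c cells studied. Bases that GENCODE M21 places in an exon were left off, except for Gbp2, where the match itself lies in the annotated first exon and a site of 30 bases is shown. The stretch of Gbp5 precedes its RefSeq start but lies inside the GENCODE M21 gene model, which begins at chr3:142493978.
Gbp2 (GRCm38.p6, chr3:142620595-142620624, + strand): ctcttttagtTTCACTTTCactgtcttaag
Gbp3 (GRCm38.p6, chr3:142559794-142560025, + strand): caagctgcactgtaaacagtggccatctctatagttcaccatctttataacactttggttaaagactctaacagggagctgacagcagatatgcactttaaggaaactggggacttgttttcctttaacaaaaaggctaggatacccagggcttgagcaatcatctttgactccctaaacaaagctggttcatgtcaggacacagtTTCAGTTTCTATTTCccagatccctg
Gbp5 (GRCm38.p6, chr3:142496684-142496899, + strand): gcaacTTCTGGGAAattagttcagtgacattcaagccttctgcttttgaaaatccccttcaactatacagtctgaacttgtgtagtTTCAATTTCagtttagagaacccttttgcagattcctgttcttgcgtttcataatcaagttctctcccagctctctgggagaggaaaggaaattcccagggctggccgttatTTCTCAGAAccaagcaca
Gbp7 (GRCm38.p6, chr3:142530086-142530335, + strand): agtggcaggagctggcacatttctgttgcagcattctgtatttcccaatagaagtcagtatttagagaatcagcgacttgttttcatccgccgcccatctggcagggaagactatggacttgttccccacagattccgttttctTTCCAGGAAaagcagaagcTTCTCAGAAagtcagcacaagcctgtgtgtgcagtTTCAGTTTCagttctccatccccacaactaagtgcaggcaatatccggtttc
All 4 members held an ISRE-type match, against 7.13% of the 32851 promoters in the table. It began 58 bases before the RefSeq start in Gbp2, 52 in Gbp7 and 164 in Gbp5, whereas Gbp3 held a pair at 44 and 38 bases that overlap by 3 letters. GAS matches, held by 7.02% of all promoters, were found in Gbp5 (245 and 52 bases before the start) and in Gbp7 (106 and 87 bases). A second entry for Gbp3, from a start further into the gene, held neither. These are letter matches in short windows, and binding was not measured.

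The CM library contributed 29 cancer cells and the TSF library 139, with median depths of 27679 and 26615 UMIs per cell (unique molecular identifiers, which count captured RNA molecules). Cells under 10000 UMIs made up 27.6% of the CM cells (8 cells, exact 95% interval 12.7 to 47.2%) and 10.1% of the TSF cells (14 cells, interval 5.62 to 16.3%). No cell barcode was shared between the cancer cells of both libraries, and 31 were shared between all their cells. The carcinoma label was checked against markers, which were not alike in both libraries. The summed level of 6 epithelial genes was 30.7 CP10k (UMIs per 10000 UMIs of a cell, averaged over cells) in the CM library and 30.9 CP10k in the TSF library, with Krt8 in 29 of 29 and 137 of 139 cells, but that sum is carried by Krt8 and Krt18. Epcam was found in 27.6% of CM cells and 68.3% of TSF cells, and Cldn4 was at 0.0449 CP10k in the CM library (3 cells) and 0.432 CP10k in the TSF library (25 cells). CD90.1 itself, the reporter by which the authors identified cancer cell clusters, was at 0.0343 CP10k in 2 of 29 CM cells (6.90%) and at 0.235 CP10k in 48 of 139 TSF cells (34.5%). The cancer cells fell into 2 of the authors' fine clusters, of which one held 79.3% of the CM cells (interval 60.3 to 92.0%) and 38.8% of the TSF cells (interval 30.7 to 47.5%), and the other held the rest. Ribosomal protein genes took 18.6% of UMIs in the CM library and 23.9% in the TSF library. Whether depth, these markers, cluster membership or ribosomal content had a part in the values of the members was not tested. Since each group is 1 library of pooled mice, treatment and library cannot be told apart, and the intervals given cover counting error only.

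Next, the level of the family as a whole was compared. The 8 genes together reached 19.5 CP10k in the CM library and 2.05 CP10k in the TSF library, a 9.51-fold higher sum in cancer cells of CM lungs. Every member was lower in the TSF library, as were 6095 of the 10201 genes compared below. Gbp4 and Gbp6 stood furthest apart by ratio, 44.0-fold and 23.3-fold, and Gbp2 stood furthest apart in CP10k, whereas Gbp5 had the smallest ratio (1.69-fold) and Gbp8 the lowest level. On that scale, log2(CP10k + 1) with TSF minus CM, 5 of the 8 members (Gbp2, Gbp3, Gbp4, Gbp6 and Gbp7) were at least 2-fold lower in TSF and none was at least 2-fold higher. The same was counted over 10201 genes that had a UMI in 10% or more of the cells of one library or the other. Of these, 0.529% were at least 2-fold lower (54 genes) and 0.127% at least 2-fold higher (13 genes). All 8 members passed that filter, Gbp8 through its CM cells alone. The median difference of the members was -1.38 and that of all genes compared was -0.03. Because 1 CP10k is added, a gene below 1 CP10k in both libraries cannot reach 2-fold on this scale. That holds for 8405 of the 10201 genes and, among the members, for Gbp5, Gbp8 and Gbp9. By the plain ratio of means, added after seeing the data, 7 of the 8 members (all but Gbp5) were at least 2-fold lower in TSF, against 15.7% of all genes compared, and none was at least 2-fold higher, against 8.09%. As the members were chosen by this difference, nothing is read from their counts against the background.

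**Figure D1:**
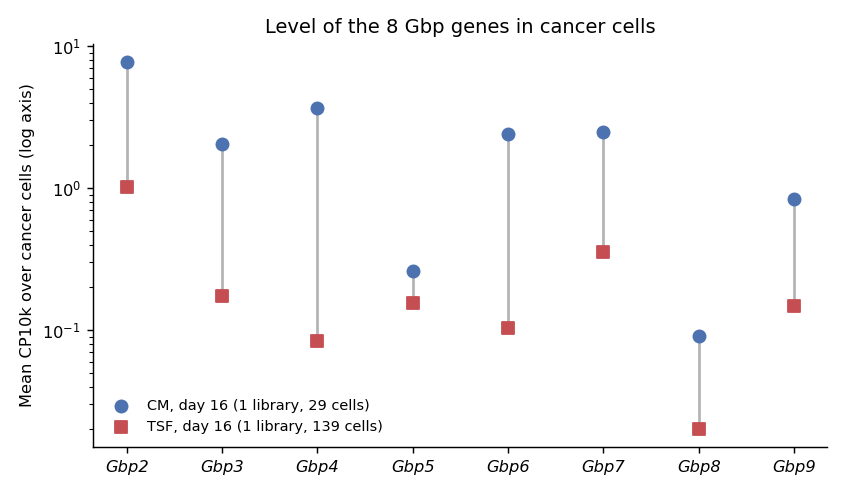
Mean CP10k over cancer cells (log axis) of each of the 8 Gbp genes in the CM library (circles, 29 cells) and the TSF library (squares, 139 cells) of day 16, 1 library each and so without error bars; lines join the values of a gene. All 8 circles lie above their squares, with the widest gap for Gbp4 (3.68 against 0.0836) and the narrowest for Gbp5 (0.262 against 0.155).

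Gbp2, a member that carries a C-terminal prenylation motif and is recruited to the vacuole of Toxoplasma gondii, had the highest level of the family in both libraries. It was at 7.68 CP10k in the CM library and 1.02 CP10k in the TSF library, a log2 difference of -2.11 and rank 4 from the lowest among the genes compared. It made up 39.3% of the members' sum in the CM library and 49.5% in the TSF library. In the CM library 27 of 29 cells held a Gbp2 UMI (93.1%, interval 77.2 to 99.2%), and in the TSF library 90 of 139 did (64.7%, interval 56.2 to 72.7%). Gbp2 thus remained detectable in most TSF cells, and the cells that held it had a mean of 1.57 CP10k there against 8.25 CP10k in the CM library.

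Gbp3 and Gbp7, which sit next to each other and are also found at the Toxoplasma vacuole, had nearly the same difference. Gbp3 was at 2.05 CP10k in the CM library and 0.173 CP10k in the TSF library (log2 difference -1.38, 11.9-fold). Its UMIs were found in 20 CM cells (69.0%) and 34 TSF cells (24.5%). Gbp7, which has been linked to autophagy proteins and the NADPH oxidase, was at 2.50 and 0.353 CP10k (log2 difference -1.37, 7.09-fold). It was found in 21 CM cells (72.4%) and 55 TSF cells (39.6%), the second most common member in the TSF library after Gbp2. For both genes the intervals of the shares did not overlap, but overlap was not counted over all genes compared, so nothing is read from it.

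Gbp4 and Gbp6 were common in CM cells and rare in TSF cells. Gbp4, reported to dampen IRF7 activity, was at 3.68 CP10k in the CM library, the second highest member there, and at 0.0836 CP10k in the TSF library, the second lowest there. Its log2 difference was -2.11, rank 3 of the genes compared, and it was found in 21 CM cells (72.4%, interval 52.8 to 87.3%) and 18 TSF cells (12.9%, interval 7.86 to 19.7%). Gbp6, another member that gathers at the Toxoplasma vacuole, was at 2.42 and 0.104 CP10k (log2 difference -1.63). It was found in 22 CM cells (75.9%, interval 56.5 to 89.7%) and likewise in 18 TSF cells.

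Gbp9, which is also recruited to that vacuole, did not reach the 2-fold line. It was at 0.842 CP10k in the CM library and 0.148 CP10k in the TSF library, a 5.69-fold ratio but a log2 difference of -0.68, because 1 CP10k is added before the logarithm. Its shares were 55.2% of CM cells (16 cells, interval 35.7 to 73.6%) and 20.9% of TSF cells (29 cells, interval 14.4 to 28.6%). These intervals did not overlap, from which nothing is read, as overlap was not counted over all genes compared.

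Gbp5 and Gbp8 had the smallest log2 differences. Gbp5, which also carries a prenylation motif and has been linked to the NLRP3 inflammasome, was at 0.262 CP10k in the CM library and 0.155 CP10k in the TSF library (1.69-fold, log2 difference -0.13, rank 2620). It was found in 10 of 29 CM cells (34.5%, interval 17.9 to 54.3%) and 15 of 139 TSF cells (10.8%, interval 6.17 to 17.2%), and these intervals did not overlap. Gbp8 was the lowest member in both libraries, at 0.0914 and 0.0203 CP10k, with 5 cells in each. Its ratio of 4.51-fold was close to that of Gbp9, and its log2 difference of -0.10 is small because both levels lie far below the 1 CP10k added. Its shares, 17.2% of CM cells (interval 5.85 to 35.8%) and 3.60% of TSF cells (interval 1.18 to 8.19%), had overlapping intervals. Overlap was not counted over all genes compared, so nothing is read from it for any member. A single UMI in the shallowest cell adds 0.354 CP10k to the CM mean and 0.0791 CP10k to the TSF mean, which is more than the whole level of both genes in the CM library and of Gbp8 in the TSF library.

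**Figure D2:**
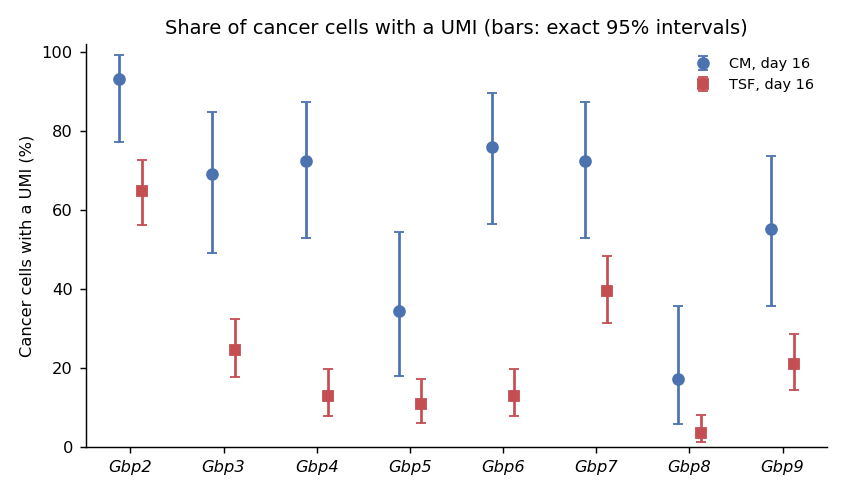
Percent of cancer cells with at least 1 UMI of each of the 8 Gbp genes in the CM library (circles) and the TSF library (squares) of day 16, with exact 95% intervals that cover counting error only. Gbp2 is found in 93.1% of CM cells and 64.7% of TSF cells. The members were chosen from these libraries, and overlap of intervals was not counted over all genes compared, so nothing is read from it.

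On the CP10k scale, in which a molecule gives 1 tag at its 5′ end whatever its length, the order of the members also differed between the libraries. In the CM library it ran from Gbp2 through Gbp4, Gbp7, Gbp6, Gbp3, Gbp9 and Gbp5 to Gbp8. In the TSF library it ran from Gbp2 through Gbp7, Gbp3, Gbp5, Gbp9, Gbp6 and Gbp4 to Gbp8. Gbp4 thus moved from the second place to the seventh, and Gbp5 from the seventh to the fourth. With 1 library per group the spread between libraries is unknown, so no neighbours in either order can be said to differ. Gbp7 and Gbp6 in the CM library (2.50 and 2.42 CP10k) and Gbp5 and Gbp9 in the TSF library (0.155 and 0.148 CP10k) were the closest pairs by ratio of CP10k levels.

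The ratio of mean levels splits into a ratio of the shares of cells with a UMI and a ratio of the mean CP10k in those cells. The split depends on the level of a gene, because a share has a ceiling and a cell with a UMI holds at least 1. It is therefore given as a description only. For Gbp2 the share was 1.44-fold higher in the CM library and the level per cell with a UMI 5.25-fold higher, so the level part was larger. As 64.7% of TSF cells held a Gbp2 UMI, its share had little room to be higher in the CM library. Gbp7 (1.83-fold and 3.87-fold) and Gbp3 (2.82-fold and 4.22-fold) leaned the same way. In Gbp4 both parts were large, 5.59-fold for the share and 7.87-fold for the level per cell with a UMI. Gbp6 (5.86-fold and 3.98-fold) and Gbp9 (2.64-fold and 2.15-fold) leaned toward the share. Gbp5 and Gbp8 differed by the share alone. The cells with a Gbp5 UMI held 0.761 CP10k in the CM library and 1.44 CP10k in the TSF library, and those with a Gbp8 UMI held 0.530 and 0.563 CP10k. These TSF means rest on 15 and 5 cells, so 1 shallow cell can move them. At the median depth 1 UMI is worth 0.361 CP10k in the CM library and 0.376 CP10k in the TSF library, so most of these TSF values stand for a few UMIs per cell.

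**Figure D3:**
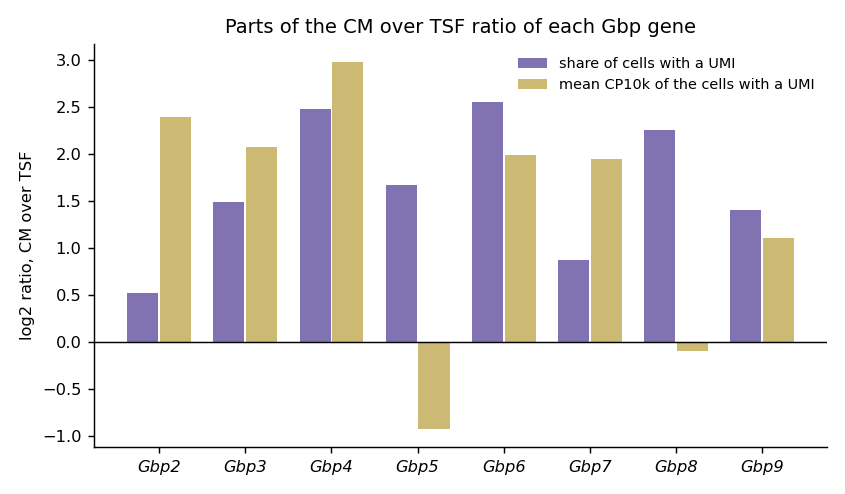
Ratio of CM over TSF on a log2 axis for each of the 8 Gbp genes, split into the share of cells with a UMI (left bars) and the mean CP10k of those cells (right bars); the 2 bars of a gene add up to its ratio of means. Gbp2 has the smallest share part (1.44-fold), and the level part lies below 0 for Gbp5 and Gbp8.

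UMIs of the members were found in fewer cells than an even spread at the mean CP10k would give. Had every cell of a library expressed a member at the library's mean, Poisson counting at the cells' own depths would have given a UMI in more cells than observed for all 8 members in both libraries. The excess had a median of 19.4 percentage points over the members in the CM library and 12.2 points in the TSF library, against medians of 2.10 and 2.45 points over all genes compared. Gbp5 in the TSF library was an example, with 34.0% expected and 10.8% observed, and Gbp4 in the CM library another, with 96.2% expected and 72.4% observed. The genes compared were not matched to the members by level, so these medians do not set the members apart. A single shallow cell can also raise the mean CP10k from which the expected share is taken. Cells of 1 library are not replicates, and which cells held several members at once was not analysed here.

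**Figure D4:**
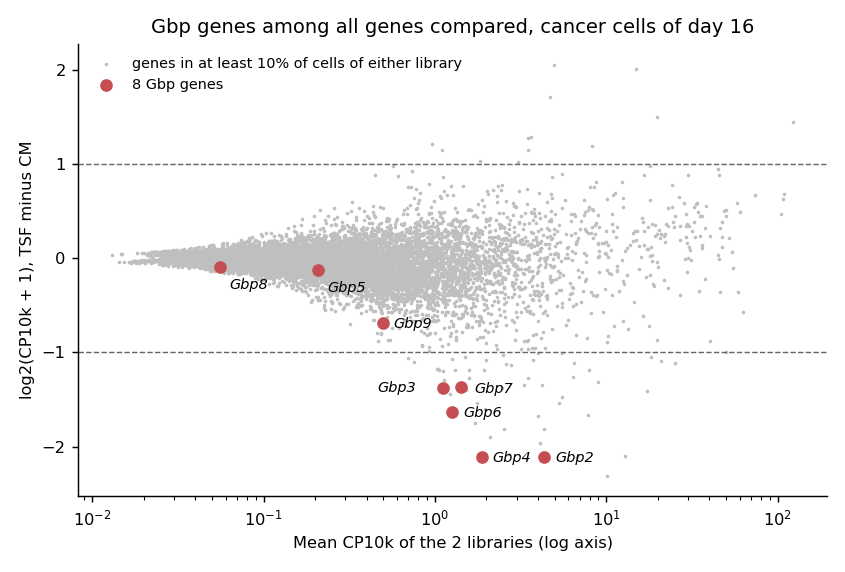
Difference in log2(CP10k + 1), TSF minus CM, against the mean CP10k of the 2 libraries (log axis) for the 10201 genes compared (grey), with the 8 Gbp genes in red and dashed lines at 2-fold. Gbp2 and Gbp4 lie near the lower edge at -2.11, and Gbp5 and Gbp8 lie within the cloud of genes of low level.

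Both Gbp genes outside the choice were lower in the TSF library as well. Gbp2b, formerly called Gbp1, which also carries a prenylation motif, was at 1.82 CP10k in the CM library and 0.244 CP10k in the TSF library (7.46-fold, log2 difference -1.18), in 21 and 50 cells. Gbp10 was found in 12 of 29 CM cells (41.4%, interval 23.5 to 61.1%) and in 3 of 139 TSF cells (2.16%, interval 0.447 to 6.18%), at 0.629 and 0.00651 CP10k. Gbp10 passed the 10% filter through its CM cells alone. With them, 6 of the 10 Gbp genes of the table were at least 2-fold lower on the log2 scale, against 0.529% of all genes compared. The sum of all 10 was 22.0 CP10k in the CM library and 2.30 CP10k in the TSF library.

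The genes lie in 2 clusters. On GRCm38, with gene models of GENCODE M21, Gbp5, Gbp7, Gbp3, Gbp2b and Gbp2 span 144 kb of the plus strand of chromosome 3 (chr3:142493978-142638008), and Gbp8, Gbp9, Gbp4, Gbp10 and Gbp6 span 280 kb of the minus strand of chromosome 5 (chr5:105014150-105293698). The 4 members on chromosome 3 summed to 12.5 CP10k in the CM library and 1.70 CP10k in the TSF library (7.36-fold). The 4 on chromosome 5 summed to 7.03 and 0.355 CP10k (19.8-fold). In each cluster the gene with the lowest coordinates, Gbp5 or Gbp8, was the one with the smallest log2 difference. Of the 5 genes on each side of each cluster, 20 in all, 13 passed the 10% filter. Of these, 10 were below 1 CP10k in both libraries and could not pass 2-fold on the log2(CP10k + 1) scale. By the plain ratio, too, none of the 13 was at least 2-fold lower or higher. Their log2 differences ran from -0.24 for Pkn2, a protein kinase, to 0.94 for Spp1, the secreted phosphoprotein osteopontin, which was higher in the TSF library (59.8 against 30.6 CP10k).

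**Figure D5:**
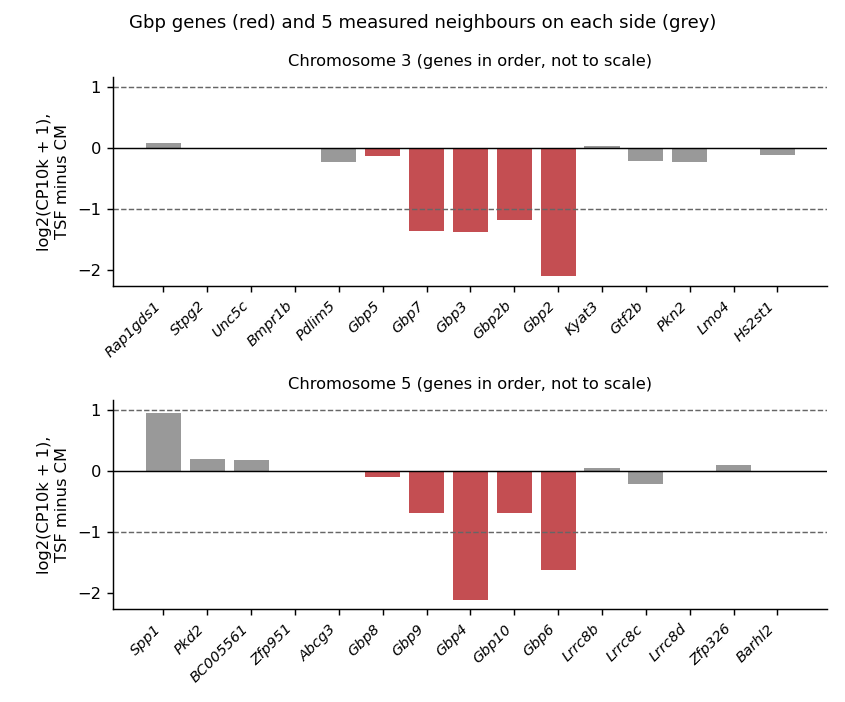
Difference in log2(CP10k + 1), TSF minus CM, for the 5 Gbp genes of each cluster (red) and the 5 measured genes on each side (grey), in gene order and not to scale, on chromosome 3 (top) and chromosome 5 (bottom), with dashed lines at 2-fold. No grey bar passes a dashed line, and Spp1 at 0.94 is the tallest; genes without a visible bar had levels at or near 0 or equal in both libraries.

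Reads of close paralogs can be given to the wrong gene or dropped. Of all 60-base words in the first 500 bases of the annotated coding transcripts, the part that 5′ libraries read, 0% of Gbp2 and of Gbp5 were found in any other gene, 2.69% of Gbp3 and 4.84% of Gbp7. On chromosome 5 the shared part was 20.4% for Gbp4, 22.5% for Gbp9, 27.6% for Gbp8 and 99.8% for Gbp6, the last almost wholly with an overlapping gene model, Gm43302. Of the genes outside the choice, Gbp2b shared 5.22% (with Gbp2) and Gbp10 39.9% (with Gbp6 and other genes of its cluster). The values of Gbp10 may therefore not be separate from those of the members. The models of Gbp8, Gbp9 and Gbp4 also overlap at their 5′ ends. The split of the chromosome 5 sum among its members is therefore uncertain, and values of Gbp2, Gbp5, Gbp3 and Gbp7 depend less on it.

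The upstream pathway was then examined, from lists chosen with earlier results of these data known. Of the interferon ligands, 3 were looked up in the table, and Ifng, Ifnb1 and Ifnl2 had a UMI in 0 of 29 CM cells and 0 of 139 TSF cells. By the rule of 3 counts this allows a share of cells with a UMI of up to 10.3% and 2.16%, which does not limit the share of cells that express them. The 7 receptors and kinases (Ifngr1, Ifngr2, Ifnar1, Ifnar2, Jak1, Jak2 and Tyk2) were all below 1 CP10k, so none could pass 2-fold on the log2(CP10k + 1) scale. Their sums were 3.60 CP10k in the CM library and 3.49 CP10k in the TSF library, and the largest log2 difference, of Ifngr2, the signaling chain of the interferon-γ receptor, was -0.21 on the log2 scale (0.526 against 0.319 CP10k). By the plain ratio none was 2-fold lower in TSF and only Tyk2 was 2-fold higher, at 0.0213 CP10k in 2 CM cells and 0.0617 CP10k in 14 TSF cells. Among the transcription factors described here, Irf1 was at least 2-fold lower in TSF, at 6.64 CP10k in the CM library and 1.39 CP10k in the TSF library (log2 difference -1.68). Stat2, Irf8 and Irf9 differed by -0.57, -0.65 and -0.58. These 3 were below 1 CP10k in both libraries and could not pass 2-fold on that scale. By the plain ratio they were 3.10-fold, 5.03-fold and 4.03-fold lower in TSF. Among 5 inhibitors of the pathway, only Socs1, a feedback inhibitor of the JAK kinases, was past 2-fold on the log2 scale (2.65 against 0.385 CP10k, -1.40). Of the 5, 3 were below 1 CP10k in both libraries and could not pass. By the plain ratio 3 of the 5 were at least 2-fold lower in TSF, against 15.7% of all genes compared. These were Socs1, Usp18 (4.64-fold) and Irf2 (2.02-fold).

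The immunity-related GTPases (IRGs), which act with GBPs on pathogen vacuoles, were the list nearest to the members in count and median. Of 8 in the table, 5 were at least 2-fold lower in the TSF library: Igtp (-1.90), Iigp1 (-1.75), Ifi47 (-1.54), Irgm1 (-1.44) and Irgm2 (-1.10). Their sum was 15.6 CP10k in the CM library and 1.42 CP10k in the TSF library (10.9-fold), and their median difference was -1.27. Tgtp1, Tgtp2 and Gm4951 were below 1 CP10k in both libraries, with log2 differences from -0.81 to -0.44, and their plain ratios were 15.8-fold, 11.2-fold and 9.74-fold. Tgtp1 and Tgtp2 are near-identical copies.

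Lists of proteins that handle or follow GBPs were examined in the same way. The 6 genes listed for protein prenylation, a modification for which Gbp2 and Gbp5 carry a motif, were all below 1 CP10k. They could not pass 2-fold on the log2 scale. By the plain ratio none of them was 2-fold lower or higher, and the largest log2 difference, of Pggt1b, was -0.08 (0.326 CP10k in the CM library and 0.254 CP10k in the TSF library). Of 10 genes of ATG8 conjugation, which GBPs and IRGs need to reach vacuoles, 4 reached 1 CP10k and none of the 10 was past 2-fold on the log2 scale. Gabarap had the largest log2 difference (0.31, with 5.62 CP10k in the TSF library and 4.35 CP10k in the CM library), and by the plain ratio only Atg16l1 was 2-fold lower in TSF (0.346 against 0.142 CP10k). Of 6 inflammasome genes, 3 passed the 10% filter, and Casp1, the inflammatory caspase, was at 1.28 CP10k in the CM library and 0.507 CP10k in the TSF library (-0.60). Of the related large GTPases, the 3 atlastins passed the filter, all below 1 CP10k. The largest log2 difference was that of Atl3 (-0.10), whereas by the plain ratio only Atl2 passed 2-fold, at 0.0372 CP10k in 3 CM cells and 0.0791 CP10k in 27 TSF cells.

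Genes of interferon gene sets deposited with the study were counted with and without the Gbp genes, and not all of these sets are given here. Of 3065 sets, 10 held at least 1 member. In the Hallmark interferon-γ response, 164 genes passed the filter and 18 were at least 2-fold lower in TSF, none at least 2-fold higher, with a median of -0.24. Without its Gbp genes, 16 of 159 were 2-fold lower and the median was -0.23. In the Hallmark interferon-α response 10 of 91 were 2-fold lower, with a median of -0.30. In the Reactome set for interferon-γ signaling, which holds 7 of the 8 members, 14 of 69 were 2-fold lower, and 9 of 60 without Gbp genes. Some interferon sets without a member held fewer. The WikiPathways overview of interferon-mediated signaling had 1 of 14 genes 2-fold lower (median 0.02). Its set for type I interferon signaling had 2 of 46 (median -0.08). The Reactome set for interferon induction through DDX58 and IFIH1 had 1 of 61 (median -0.16). Over all genes compared, 0.529% were 2-fold lower.

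The 10 genes with the lowest log2 difference placed Gbp4 at rank 3 and Gbp2 at rank 4. Around them stood the IRG Igtp, and Cd74 and H2-Aa, which serve antigen presentation by MHC class II (Cd74 was at 21.5 CP10k in the CM library and 4.23 CP10k in the TSF library). Also there were Atf3 and Egr1, immediate-early transcription factors that tissue dissociation can also induce, Dnajb1, a heat shock co-chaperone, and the histone gene Hist1h2ae. Atf3 had the lowest difference of all (-2.31, 17.5 against 2.73 CP10k). How Atf3, Egr1 and Dnajb1 bear on the members was not tested.

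RNA of immune cells, which can express GBPs strongly, was looked for with marker lists. All 6 leukocyte markers (Ptprc among them), all 5 myeloid markers and all 3 T and NK cell markers were at 0 in the CM library. They summed to 0.173, 1.00 and 0.00483 CP10k in the TSF library. Most of the myeloid sum came from S100a9 (0.685 CP10k in 4 of 139 TSF cells) and S100a8 (0.300 CP10k in 2 cells). Itgam was at 0.0189 CP10k in 6 TSF cells, and Lyz2 and Csf1r were at 0 in the TSF library. The most frequent of the leukocyte markers there, Coro1a, was found in 9 of 139 cells. The B cell markers summed to 0.0184 CP10k in the CM library and 0.0122 CP10k in the TSF library. Endothelial markers summed to 0.0588 and 0.173 CP10k, and fibroblast markers to 0.498 and 1.04 CP10k. Of the latter, Pdgfra was found in 13 CM cells (44.8%) and 63 TSF cells (45.3%), and Dcn was at 0.0907 and 0.526 CP10k. By the rule of 3 counts, a marker at 0 in the CM library still allows a share of cells with a UMI of up to 10.3%. The counts had been corrected for ambient RNA by the authors, and the shares of cells with Gbp UMIs in a cell type that lacks them were not analysed here. Whether RNA of other cells had a part in the values of the members was not tested.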

How the data were processed

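Lungs were profiled with 10x Genomics 5′ libraries. The authors mapped reads to mm10 (GRCm38.p6) plus CD90.1 with Cell Ranger, removed ambient RNA from the UMI counts with their own modification of SoupX, in which contamination fractions were raised, and annotated cell types by hand from clusters, taking cancer cells by clusters with CD90.1. Their methods describe removal of mixed-cell clusters, checked with scDblFinder scores, and no doublet removal among cancer cells, and none was done here. Counts were imported with Seurat 4.1.0. Deposited were, per gene and library, a mean CP10k, a depth-scaled score recorded as such because it is no count of reads, the count of cells with a UMI and the percent of cells with a UMI, and, per cell, UMI counts. The same table holds the authors' log2 fold changes, p-values, q-values and ranking metric, and another their enrichment scores by gene set, none of which was used. The cell table also held 2 libraries that were not used.

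From these, ratios, differences of log2(CP10k + 1) and Clopper-Pearson 95% intervals were computed. Genes compared had a UMI in 10% or more of the cells of one library or the other, a filter that a gene can pass through the library where it is high. With 1 library per group no test was made. Cells could not be thinned to equal depth from these tables. Total UMIs of the cancer cells were 726849 (CM) and 3937739 (TSF). Cancer cells of day 11 (6 in CM, 75 in TSF) have no gene values in the tables used. Members and lists were chosen with earlier results of these data known. Named genes were the members, the genes past 2-fold of each list (or the one furthest apart), and the 10 genes of lowest difference. Gbp11, Ifnl3, Gm12250, Mx1 and Mx2 were not analysed here, and 1 gene of the lists is not reported here. Alternatives changed the pseudocount, centring, scaling, filter and set of genes. The computation was tested on simulated data. Computation used scipy 1.17.1 and pandas 2.3.3 with numpy 2.4.6 under Python 3.11.15, and figures matplotlib 3.10.9.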

Additional observations from a re-analysis of the deposited data

How the results depend on the processing

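No paired analysis was possible because each group had 1 library, and for the same reason no replicate could be left out. The ratio of the summed level, 9.51 with all 8 members, was 9.30 after centring on the median gene, 8.89 on CP10k without Rpl and Rps genes, 11.4 without Gbp2 and 2.58 for summed shares of cells in place of levels. Sums chosen after seeing the data gave 7.36 for the chromosome 3 members, 19.8 for the chromosome 5 members and 9.54 for all 10 Gbp genes. The median difference of the members, -1.38, was -1.34 after centring, -1.50 without Rpl and Rps genes and -2.66 with a pseudocount of 0.1 CP10k. The count of members at least 2-fold lower stayed at 5, or was 6 with that pseudocount or with shares of cells, but the background moved more: 4.86% of all genes were then 2-fold lower with the pseudocount of 0.1 and 5.89% by shares, against 0.529%. The pathway lists together went from 9 to 18 genes at least 2-fold lower with that pseudocount, with 0 at least 2-fold higher in either case. By the plain ratio, chosen after seeing the data, 7 members and 15.7% of all genes were 2-fold lower, and the lists held 20 genes lower and 2 higher. Depth limits Gbp8, found in 5 cells of each library, and Gbp5, found in 15 TSF cells and 10 CM cells.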
